A study of Mus musculus with 2 samples.

Results

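Endoplasmic reticulum (ER) chaperones and the transcription factor gene Xbp1 were described in alveolar macrophages, which live in the air spaces of the lung and clear particles and surfactant. The set was given as 10 gene symbols (Hspa5, Hsp90b1, Dnajc3, Calr, Canx, Pdia3, Pdia4, Pdia6, P4hb and Xbp1), and 9 of them were read on the arrays, out of 22180 named genes. Pdia4, a protein disulfide isomerase, had no probe set of its own: the single probe set that carried its symbol also carried another gene's, so no value is given for it. Each of the other 9 genes had 1 probe set. Cells came from mouse lungs, at 8 to 10 weeks of age, and were purified by flow cytometry, and 1 Affymetrix array was hybridised per genotype, Lysm-CreSsu72fl/fl and Lysm-Cre. Both genotypes carry Cre recombinase driven by the lysozyme 2 locus, which is active in myeloid cells, so the arrays differ in the floxed Ssu72 allele. The Ssu72 protein removes phosphates from the tail of RNA polymerase II. The sources used here do not give the number of mice behind an array.

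Proteins destined for the cell surface, lysosomes or secretion fold in the ER lumen. There Hspa5 and Hsp90b1 bind unfolded chains, calreticulin and calnexin hold newly glycosylated ones, and protein disulfide isomerases form and rearrange disulfide bonds. When unfolded protein accumulates, the sensors encoded by Ern1, Atf6 and Eif2ak3 start the unfolded protein response: IRE1 (Ern1) splices Xbp1 mRNA into the form that encodes the active factor, ATF6 is cleaved into a transcription factor, and PERK (Eif2ak3) slows translation and induces ATF4 and then CHOP (Ddit3). Macrophages carry much traffic through the ER, with lysosomal enzymes, surface receptors and MHC molecules among its clients.

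A DNA element known to connect this response to chaperone genes is the ER stress response element, a CCAAT box to which NF-Y binds, separated by a fixed spacer from a CCACG block contacted by ATF6 and XBP1. The motif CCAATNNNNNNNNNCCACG was searched on both strands in the RefSeq promoter windows of mouse genes (GRCm38.p6), each running from 250 bases before to 50 bases after an annotated gene start. All 10 genes had a window, and 6 of the 10 held the motif, against 37 of all 27025 genes (0.137%). Among protein-coding genes the share was 0.166% (29 of 17491). Since the element is known from chaperone genes of this response, a high share among such genes is not an independent result. The matches are printed as a sequence feature of these genes. Each is written 5′ to 3′ from the CCAAT box, with the fixed letters in capitals and the spacer in lower case:

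Hspa5: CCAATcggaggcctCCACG
Hsp90b1, distal: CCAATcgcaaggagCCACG
Hsp90b1, proximal: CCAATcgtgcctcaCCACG
Dnajc3: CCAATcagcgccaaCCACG
Calr: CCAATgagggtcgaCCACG
Canx: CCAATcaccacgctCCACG
Pdia6: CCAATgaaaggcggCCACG

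The Hspa5 match lay at chr2:34772025-34772043, on the plus strand that the gene is read from, and its last base was 47 bases before the gene start. Hsp90b1, a minus-strand gene, was the only one of the 10 with 2 matches. Its distal match at chr10:86705638-86705656 ran along the gene's own strand and its proximal match at chr10:86705533-86705551 along the opposite one. The Dnajc3 match lay at chr14:118937827-118937845 and the Pdia6 match at chr12:17266491-17266509, both on the plus strand like their genes. The Calr match at chr8:84847075-84847093 ran opposite to the gene, which is on the minus strand, and the Canx match at chr11:50325800-50325818 ran along its minus-strand gene. All 7 matches lay upstream of the gene start, with their nearest base 47 to 194 bases away.

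**Figure D1:**
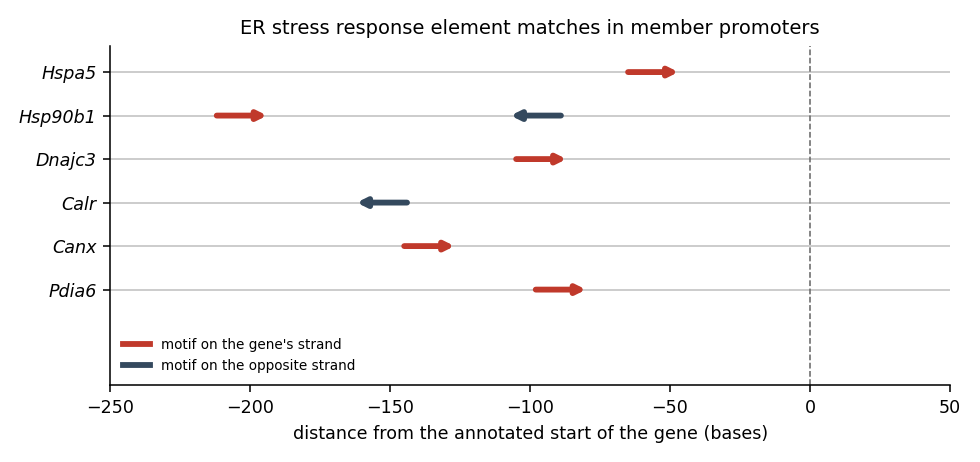
Position of each match to the ER stress response element in the promoter windows of 6 genes. The horizontal axis gives the distance in bases from the annotated gene start (dashed line), each grey line is 1 window, and arrows point from CCAAT to CCACG; 5 arrows run along the gene's strand and 2, in Hsp90b1 and Calr, run against it.

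The whole upstream stretch is shown for Hspa5, the classical target of this response, for Hsp90b1 with its pair of matches, and for Dnajc3, the one gene with a higher signal on the Lysm-CreSsu72fl/fl array. Capitals mark the CCAAT and CCACG letters of a match, read along the gene's strand, so a match on the opposite strand appears as CGTGG and ATTGG. The stretches are chr2:34771840-34772089 (plus strand), chr10:86705445-86705694 (minus strand) and chr14:118937682-118937931 (plus strand):

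Hspa5 upstream: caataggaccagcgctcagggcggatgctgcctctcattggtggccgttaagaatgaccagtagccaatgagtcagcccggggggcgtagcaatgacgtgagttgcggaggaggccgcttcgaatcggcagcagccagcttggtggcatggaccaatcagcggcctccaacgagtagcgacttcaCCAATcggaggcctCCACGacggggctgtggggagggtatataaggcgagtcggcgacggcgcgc
Hsp90b1 upstream: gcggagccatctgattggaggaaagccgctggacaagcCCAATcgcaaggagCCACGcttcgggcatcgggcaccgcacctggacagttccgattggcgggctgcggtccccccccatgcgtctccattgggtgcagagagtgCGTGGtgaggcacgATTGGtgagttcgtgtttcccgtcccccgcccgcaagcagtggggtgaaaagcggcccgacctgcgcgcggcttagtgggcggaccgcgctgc
Dnajc3 upstream: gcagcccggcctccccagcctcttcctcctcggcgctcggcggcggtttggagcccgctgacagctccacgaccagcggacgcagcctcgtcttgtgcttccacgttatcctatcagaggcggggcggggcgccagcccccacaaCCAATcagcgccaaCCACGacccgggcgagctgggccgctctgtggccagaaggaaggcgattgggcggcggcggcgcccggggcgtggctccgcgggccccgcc

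No exact match was found in the windows of Pdia3, Pdia4, P4hb and Xbp1. When 1 mismatch in the fixed letters was allowed, a search added after the exact one had been seen, Pdia3 and Pdia4 also had a match, giving 8 of 10 genes against 1.72% of all genes. The related elements ATTGGNCCACG and TGACGTGG, known as ERSE-II and the unfolded protein response element, had no match in any of the 10 windows and were found in 0.0444% and 0.714% of all genes. The plain CCAAT box was in 9 of the 10 windows, against 41.1% of all genes.

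The deposited values are log2 signals, which set each gene against itself between the 2 arrays. Differences are Lysm-CreSsu72fl/fl minus Lysm-Cre, and with 1 array per genotype there is no replicate, test or p-value. As the scatter to read a difference against, each gene was set beside the 200 other named genes nearest to it in mean signal. Their median difference and robust SD (scaled median absolute deviation) are given, and this scatter is between genes, not between animals. Such a yardstick is needed because brighter genes were mostly lower on the Lysm-CreSsu72fl/fl array. The median difference of other named genes was -0.031 at mean signals from 5 to 6 (4459 genes), -0.19 from 6 to 7 (587 genes) and -0.42 from 7 to 8 (151 genes). The 99th percentile of all features was 7.66 on the Lysm-CreSsu72fl/fl array and 8.05 on the Lysm-Cre array. Ssu72 itself read 4.998 on the Lysm-CreSsu72fl/fl array and 4.86 on the Lysm-Cre array. The sources used here do not place its probes relative to the deleted part, so its value does not check the genotype, and every direction rests on the label.

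Of the 9 measured genes, 8 had a lower signal on the Lysm-CreSsu72fl/fl array and 1, Dnajc3, a higher one. All 9 were above the floor, the median of all values, on both arrays. The median difference was -0.48, against -0.0068 over all 13015 compared genes and -0.15 over the 1424 other genes in the same range of mean signal, 5.58 to 7.30. Of all compared genes 51.9% were lower, and of those in that range 68.5%. Hsp90b1, Calr and Canx were at least 1.5-fold lower, 3 of 9 genes. In the deposited values 1.37% of all compared genes were that much lower, and 7.16% of those in the same range of signal. After quantile normalization of the 2 arrays none of the 3 was, against 0.330% of all compared genes, and the median difference of the 9 was -0.18. The counts that follow are again from the deposited values. None of the 9 was at least 1.5-fold higher, against 0.315% of all compared genes and 1.47% in the range, and none of the 9 differed 2-fold. A 2-fold lower signal was seen in 0.0845% of all compared genes and 0.351% of those in the range, and a 2-fold higher one in 0.0307% and 0.211%. Around the 3 genes themselves this size of difference was common: 45 of the 200 genes nearest to Hsp90b1, 50 of those nearest to Calr and 40 of those nearest to Canx were at least 1.5-fold lower. After the median of its 200 nearest genes was subtracted from each difference, 7 of the 9 lay below 0 and 2 above, and the median was -0.24. In bulk samples fewer cells of a type and less RNA per cell cannot be told apart.

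**Figure D2:**
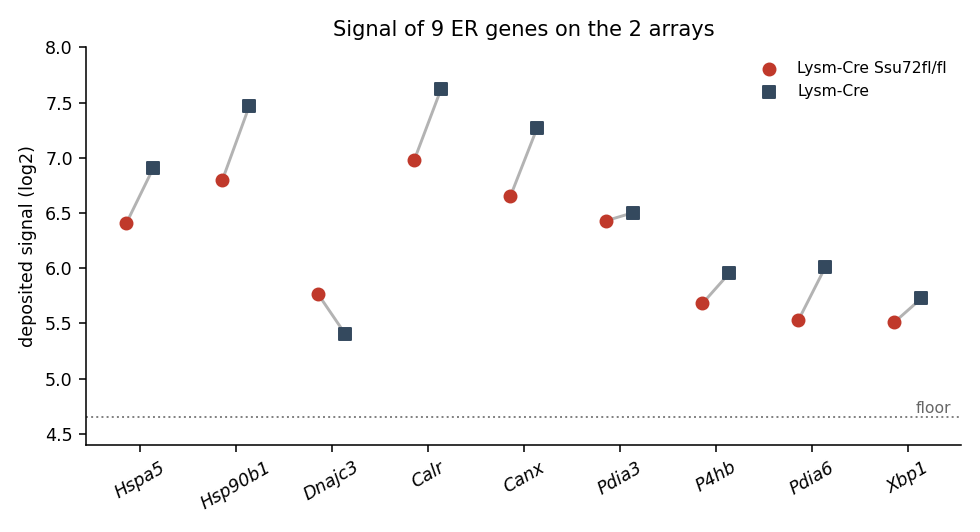
Deposited log2 signal (vertical axis) of the 9 measured ER genes on the Lysm-CreSsu72fl/fl array (circles) and the Lysm-Cre array (squares), 1 array each, with a line joining the 2 values of a gene and a dotted line at the floor of 4.65. Circles lie below squares in 8 genes and above in Dnajc3. Heights of different genes are not comparable, since probe sets differ in brightness.

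The 2 main lumenal chaperones were both lower. Hspa5, also called BiP, the Hsp70 of the ER and the protein that holds the stress sensors inactive, read 6.41 on the Lysm-CreSsu72fl/fl array and 6.90 on the Lysm-Cre array, a difference of -0.50 or a ratio of 0.708. Its 200 nearest genes had a median of -0.24 and a robust SD of 0.30, and 33 of them were lower still. Its place among 22180 named genes was 459 on the Lysm-CreSsu72fl/fl array and 344 on the Lysm-Cre array, counted from the brightest. Hsp90b1, the Hsp90 of the ER, which folds Toll-like receptors and integrins, read 6.80 on the Lysm-CreSsu72fl/fl array and 7.47 on the Lysm-Cre array. Its difference of -0.67 (ratio 0.629) was the largest of the 9 and took it to place 280, against 208 on the Lysm-Cre array. Genes of like signal had a median of -0.37 with a robust SD of 0.30, so -0.30 remained, about the size of that scatter. Of the 200, 24 were lower still.

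Dnajc3 went the other way. It encodes a J-domain co-chaperone that hands unfolded chains to BiP and is also known as an inhibitor of PERK. It read 5.76 on the Lysm-CreSsu72fl/fl array and 5.40 on the Lysm-Cre array, a difference of 0.36 or a ratio of 1.28. Its 200 nearest genes had a median of -0.091 and a robust SD of 0.24, and only 5 of them were higher than it. The remaining 0.45 was 1.88 times the scatter, the widest such gap of the 9. Its place was 1144 on the Lysm-CreSsu72fl/fl array and 2390 on the Lysm-Cre array. Its promoter holds the same element as those of Hspa5 and Hsp90b1, printed above, while its difference has the opposite sign.

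The lectin chaperones Calr and Canx, which bind glycoproteins carrying a trimmed sugar chain, differed by nearly the same amount. Calreticulin is soluble, and calnexin is anchored in the ER membrane. Calr read 6.98 on the Lysm-CreSsu72fl/fl array and 7.63 on the Lysm-Cre array (-0.64, ratio 0.640). Canx read 6.65 on the Lysm-CreSsu72fl/fl array and 7.27 on the Lysm-Cre array (-0.62, ratio 0.650). Genes of like signal were themselves lower, with medians of -0.41 for Calr and -0.34 for Canx and robust SDs of 0.28 and 0.29. The remainders of -0.24 for Calr and -0.28 for Canx were smaller than that scatter. Of their 200 nearest genes, 35 lay below Calr and 34 below Canx.

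The 3 measured protein disulfide isomerases differed among themselves. Pdia3, which partners with calreticulin and calnexin and sits in the MHC class I peptide-loading complex, read 6.43 on the Lysm-CreSsu72fl/fl array and 6.50 on the Lysm-Cre array. Its difference of -0.072 was the smallest of the 9 in size, and 119 of its 200 nearest genes were lower than it (median -0.18, robust SD 0.33). That is nearer to 0 than the differences of its partners Calr and Canx, a contrast that could not be tested with 1 array per genotype. P4hb, the founding protein disulfide isomerase and a subunit of collagen prolyl hydroxylase, read 5.68 on the Lysm-CreSsu72fl/fl array and 5.95 on the Lysm-Cre array (-0.27). Genes of like signal had a median of -0.10 and a robust SD of 0.24, and 51 of 200 were lower than P4hb.

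Pdia6, an isomerase known to bind and restrain IRE1, read 5.53 on the Lysm-CreSsu72fl/fl array and 6.01 on the Lysm-Cre array. The difference of -0.48 (ratio 0.717) stood beside a median of -0.12 and a robust SD of 0.24 in genes of like signal. The remaining -0.36 was 1.48 times the scatter, and 16 of the 200 were lower still. Among the 8 lower genes Pdia6 was thus the farthest below its like-signal genes, although Hsp90b1, Calr, Canx and Hspa5 had larger deposited differences. Its place was 1720 on the Lysm-CreSsu72fl/fl array and 937 on the Lysm-Cre array.

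Xbp1 read 5.51 on the Lysm-CreSsu72fl/fl array and 5.73 on the Lysm-Cre array, a difference of -0.22. The 200 genes of like signal had a median of -0.068 and a robust SD of 0.25, and 62 of them were lower than Xbp1. The remaining -0.15 was smaller than the scatter. A single value per gene does not separate spliced from unspliced Xbp1 mRNA, so the form that encodes the active factor was not measured.

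**Figure D3:**
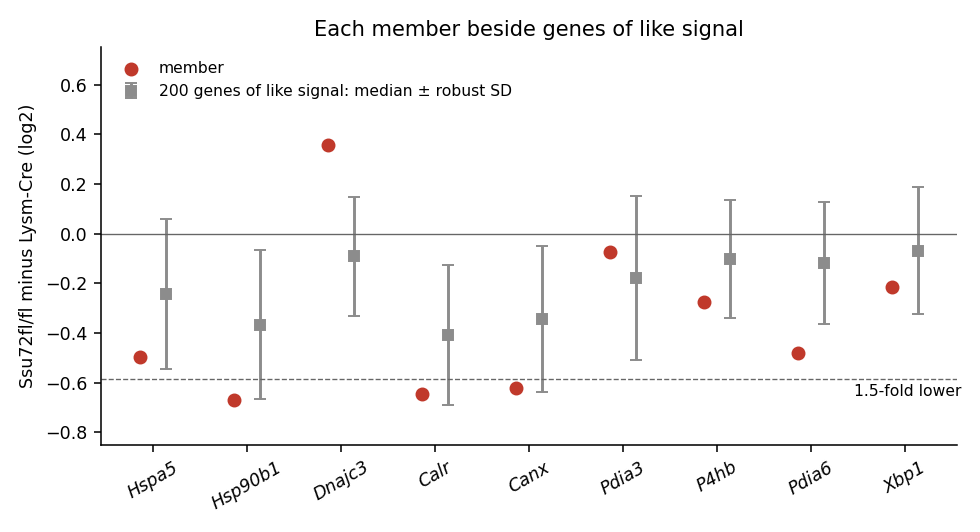
Log2 difference, Lysm-CreSsu72fl/fl minus Lysm-Cre (vertical axis), of each of the 9 genes (circles) beside the median (squares) and robust SD (bars) of the 200 named genes nearest in mean signal; the dashed line marks 1.5-fold lower. Dnajc3 lies above its bar, Pdia6 below its bar, Hsp90b1 at the lower end of its bar and the other 6 inside theirs.

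**Figure D4:**
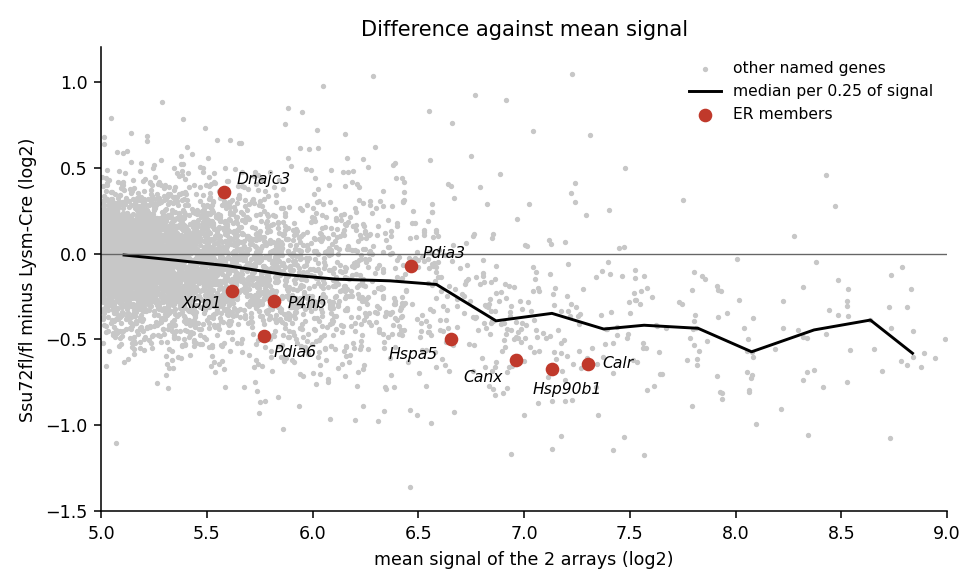
Log2 difference, Lysm-CreSsu72fl/fl minus Lysm-Cre (vertical axis), against mean log2 signal of the 2 arrays (horizontal axis, shown from 5 to 9). Grey points are other named genes, the black line their running median and the large points the 9 ER genes. The line falls with signal, and 7 of the 9 genes lie below it.

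For each gene, the other named gene nearest in both signals was looked up, a match that is close by construction among so many genes. It was Plin2 for Calr (6.97 on the Lysm-CreSsu72fl/fl array and 7.62 on the Lysm-Cre array), Tgfbi for Canx, Rpl23a for Hsp90b1, Chmp2a for Hspa5 and Klc1 for Pdia3. It was Rassf5 for Pdia6, Wdfy3 for P4hb, Tmem201 for Dnajc3 and Vti1b for Xbp1. The Euclidean distance over the 2 arrays was 0.0096 to 0.042, and neither shared function nor an order of abundance follows from it.

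The wider ER pathway was read from 8 lists holding 163 genes, of which 129 were compared. Of these 129, 87 were lower (67.4%, against 51.9% of all compared genes), and 77 after subtraction of like-signal genes. At least 1.5-fold lower was 1 of them (0.775%, against 1.37% of all compared genes), and none was at least 1.5-fold higher (0.315% of all). The counts of lower genes in each list below are to be read against that 51.9%. The list nearest in role, other ER chaperones and co-chaperones, had 8 of 12 lower and a median of -0.18 (-0.15 after subtraction of like-signal genes, which left the count at 8). A floor at the 25th percentile, which lets in dimmer genes, gave medians of -0.033 and -0.038. Creld2, a secreted ER stress protein, was at its lower end, at 5.08 on the Lysm-CreSsu72fl/fl array and 5.48 on the Lysm-Cre array (-0.40), and 8 of its 200 nearest genes were lower. Hyou1, an ER chaperone of the Hsp110 family that exchanges nucleotide on BiP, followed at -0.35. Serpinh1, the collagen chaperone, was the highest at 0.36, with 5.33 on the Lysm-CreSsu72fl/fl array and 4.96 on the Lysm-Cre array, ahead of the prolyl isomerase gene Fkbp2 (0.062).

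Other genes of oxidative folding were divided, with 6 of 16 lower and a median of 0.025 (7 of 16 and 0.028 after subtraction). The ends were Selenof (-0.25), a selenoprotein that works with the glucosyltransferase Uggt, and Ero1a (-0.23), the oxidase that recharges protein disulfide isomerase, against Vkorc1 (0.17), the vitamin K epoxide reductase, and Tmx2 (0.11), a membrane thioredoxin-like protein. N-glycosylation and calnexin cycle genes had 11 of 18 lower, with a median of -0.093 (10 of 18 and -0.055 after subtraction). The oligosaccharyltransferase subunit genes Rpn1 (-0.31) and Magt1 (-0.31) were lowest. Prkcsh, the beta subunit of the glucosidase that trims sugars for calnexin, was highest at 0.30, with 6.17 on the Lysm-CreSsu72fl/fl array and 5.87 on the Lysm-Cre array, followed by the cargo receptor gene Lman1 (0.055).

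Translocon and signal recognition genes, which bring chains into the ER, had 19 of 23 lower and a median of -0.096, or 17 of 23 and -0.095 after subtraction. Srp72, a signal recognition particle subunit, read 5.12 on the Lysm-CreSsu72fl/fl array and 5.61 on the Lysm-Cre array (-0.49), and 3 of its 200 nearest genes were lower. Sec61g, a subunit of the channel, was at -0.45. The translocon-associated genes Ssr4 (0.27) and Ssr3 (0.18) were the highest. ER-associated degradation genes had 12 of 18 lower and a median of -0.046 (11 of 18 and -0.037 after subtraction). Both medians turned positive under a 75th-percentile floor, at 0.0096 and 0.106. The list ran from Vcp (-0.45), the ATPase that extracts proteins from the membrane, and Ubxn4 (-0.18), which recruits it, to Dnajb12 (0.24), a membrane-bound co-chaperone, and Selenos (0.21), a selenoprotein of the degradation complex.

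The unfolded protein response list itself had 14 of 20 lower, with a median of -0.054 (13 of 20 and -0.023 after subtraction). Atf3, a stress-induced factor, was the 1 list gene past 1.5-fold, at 7.72 on the Lysm-CreSsu72fl/fl array and 8.43 on the Lysm-Cre array (-0.71, or -0.27 after subtraction against a robust SD of 0.28). The sensor gene Ern1 read 5.42 on the Lysm-CreSsu72fl/fl array and 5.67 on the Lysm-Cre array (-0.25), and Atf6 read 5.18 on the Lysm-CreSsu72fl/fl array and 5.29 on the Lysm-Cre array (-0.11). Eif2ak3 was at the floor, above it on 1 array only. The effectors Atf4 (-0.17) and Ddit3 (-0.38) were lower, with remainders of -0.15 for Atf4 and -0.28 for Ddit3 and robust SDs of 0.19 and 0.24. Nupr1, a stress-induced nuclear protein, was highest at 0.39, followed by Sesn2 (0.18).

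Chaperones of other compartments gave the comparison by location. Of 16 cytosolic and mitochondrial chaperone genes 13 were lower, with a median of -0.16. Subtraction left 9 lower and 7 higher and a median of -0.043, or 0.046 under a 75th-percentile floor. Hsp90aa1, the cytosolic counterpart of Hsp90b1, read 6.39 on the Lysm-CreSsu72fl/fl array and 6.46 on the Lysm-Cre array (-0.069), and the mitochondrial Trap1 read 4.72 on the Lysm-CreSsu72fl/fl array and 4.77 on the Lysm-Cre array (-0.053). Hspa8, the cytosolic counterpart of Hspa5, read 8.73 on the Lysm-CreSsu72fl/fl array and 8.93 on the Lysm-Cre array (-0.20), or 0.23 above genes of like signal. The mitochondrial Hspa9 was at -0.32, or -0.28 after subtraction of like-signal genes, beside -0.26 for Hspa5. Of the 200 nearest genes, 22 lay below Hspa9 and 33 below Hspa5. The list ran from Hspa1a (-0.37), which shares near-identical sequence with Hspa1b, and Hspa9 to Hspe1 (0.090) and Dnajb1 (0.014). The differences of Hsp90b1 and Hspa5 were thus larger than those of their cytosolic counterparts, again a contrast with no test. Of 6 MHC class I peptide-loading genes, whose products work with Calr and Pdia3, 4 were lower, with a median of -0.11. After subtraction 2 were lower and the median was 0.049, and after quantile normalization the plain median was 0.059. They ran from B2m (-0.37) and Tapbp (-0.30), the tapasin gene, to Tap1 (0.22) and Erap1 (0.046).

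**Figure D5:**
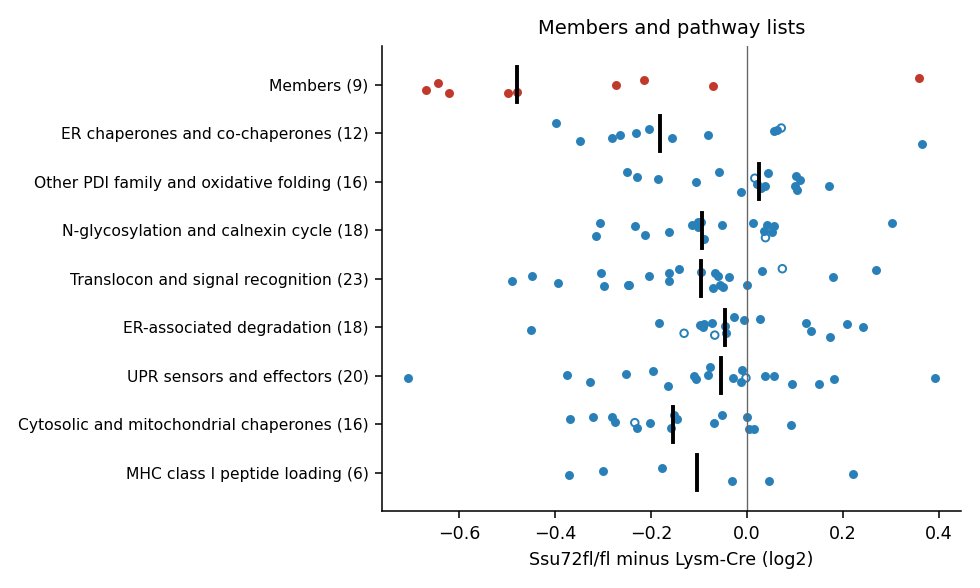
Log2 difference, Lysm-CreSsu72fl/fl minus Lysm-Cre (horizontal axis), of the 9 ER genes (top row) and of the compared genes of 8 lists (number in brackets). Points are genes, open points are bounds because 1 array was below the floor, and vertical bars are medians, at -0.48 for the 9 genes and between -0.18 and 0.025 for the lists.

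Markers of other cells were read beside these values, since plasma cells and alveolar type 2 cells, both strongly secretory, are also rich in ER chaperones. Counts of lower markers are to be read against the 51.9% of all compared genes that were lower. Among other named genes the share lower was 56.5% at mean signals from 5 to 6, 70.9% from 6 to 7 and 88.1% from 7 to 8. Like-signal genes were not subtracted for the markers. All 9 alveolar macrophage markers with a probe set of their own were above the floor on both arrays, among them Chil3, Siglecf and Marco, and 8 were lower on the Lysm-CreSsu72fl/fl array. Summed on the linear scale, they gave 1512 on the Lysm-CreSsu72fl/fl array and 1778 on the Lysm-Cre array, a ratio of 0.850. Chil3, with a difference of -0.12, was the largest part of both sums, so the ratio leans on it. Marco (-0.51), Itgax (-0.49) and Pparg (-0.39) differed more, and Fabp4 (0.19) was the 1 higher marker. The median difference of the 9 markers was -0.30. The sum of the 9 ER genes was 706 on the Lysm-CreSsu72fl/fl array and 961 on the Lysm-Cre array, a ratio of 0.735. Of 9 plasma cell markers, 6 were above the floor on both arrays (Mzb1, Sdc1, Ighm, Prdm1, Irf4 and Cd79a), 4 lower and 2 higher. Jchain, Tnfrsf17 and Derl3 were below it on both. The sum of all 9 was 343 on the Lysm-CreSsu72fl/fl array and 402 on the Lysm-Cre array. Ighm, the brightest of the 9 and so the largest part of that sum, read 6.88 on the Lysm-CreSsu72fl/fl array and 7.46 on the Lysm-Cre array.

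The 8 alveolar type 2 markers summed to 606 on the Lysm-CreSsu72fl/fl array and 737 on the Lysm-Cre array, with 7 of 8 lower. Sftpc was the largest part of both sums. All 7 interstitial macrophage and monocyte markers were lower, and their sum was 532 on the Lysm-CreSsu72fl/fl array and 941 on the Lysm-Cre array, a ratio of 0.565; H2-Ab1, which dendritic cells also express, was the largest part of it. Of 6 dendritic cell markers 3 were compared and all 3 were lower, while Zbtb46, Xcr1 and Itgae were below the floor on both arrays. All 6 together summed to 545 on the Lysm-CreSsu72fl/fl array and 648 on the Lysm-Cre array. Cd209a was the largest part of both sums, at 8.65 on the Lysm-CreSsu72fl/fl array and 8.97 on the Lysm-Cre array. Of 6 neutrophil markers 4 were compared and all 4 were lower, while Cxcr2 and Camp were below the floor on both. All 6 together summed to 158 on the Lysm-CreSsu72fl/fl array and 164 on the Lysm-Cre array. The brightest of them, Csf3r, read 5.04 on the Lysm-CreSsu72fl/fl array and 5.18 on the Lysm-Cre array, not far above the floor of 4.65. The 4 club cell markers summed to 336 on the Lysm-CreSsu72fl/fl array and 342 on the Lysm-Cre array, with 2 of 3 compared lower and Scgb3a2 below the floor. Scgb1a1 was the largest part of both sums. The part of these other cells in the differences of the ER genes was not tested.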

How the data were processed

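Expression was measured on 2 Affymetrix arrays, 1 per genotype, grouped by the genotype label. The deposited values are log2 signals made by the authors, 1 per probe set. Their span of 4.23 to 13.5 is the basis for calling them log2. MAS5 appears in the submitters' processing notes with no role stated. The sources used here do not give the background correction, normalization or any offset. Of 33793 probe sets, 23521 carried 1 gene symbol in the platform annotation, 1814 several and 8458 none. Only the first were used, 23328 of them updated through a RefSeq table of GRCm38.p6. Hsp90ab1, which the naming rule lists, had no such probe set.

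Where a gene had several probe sets, the one with the highest mean was used. A floor was set at the 50th percentile of all values, 4.65. Lower values were set to it in the lists, and genes above it on 1 or both arrays were compared, which left 2081 of 13015 genes with only a bound. Each difference was set beside the 200 named genes nearest in mean signal. The procedure was checked on simulated data. Python 3.11.15, numpy 2.4.6, pandas 2.3.3 and statsmodels 0.14.6 were used. Precision is limited by the number of arrays.

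The genes, pathway lists and marker lists were chosen with earlier results of these data known. Apart from the 9 genes, the text names Ssu72, the 2 highest and 2 lowest genes of each list, the gene nearest in both signals to each of the 9, the sensors and effectors of the response, the counterparts in other compartments, and markers. Markers below the floor and the genes named for the promoter motif were picked after the values were seen. Alternatives were quantile normalization, median centring, a lowess trend (fraction 0.3), 100 or 400 nearest genes, nearest features of any kind or protein-coding genes only, averaging the probe sets of a gene, floors at the 25th and 75th percentiles, and thresholds of 2-fold and of 0.32 on the log2 scale.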

Additional observations from a re-analysis of the deposited data

How the results depend on the processing

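With quantile normalization, which gives both arrays one distribution, the median difference of the 9 genes was -0.18 in place of -0.48. The median of all compared genes was then 0.0049. None of the 9 remained at least 1.5-fold lower, near the 0.330% of all compared genes that were. By any amount 7 of the 9 were lower, since Pdia3 read 0.20, and the share of all genes lower under this scaling is not given here. Hsp90b1 was then at -0.26, Calr at -0.25, Canx at -0.23 and Hspa5 at -0.18, and no list gene was past 1.5-fold. This scaling also turned the split of all genes past 1.5-fold, to 69.5% higher against 18.7% in the deposited values. At a 2-fold threshold 0 of the 9 genes and 0 list genes were lower. At a threshold of 0.32 on the log2 scale 5 of the 9 and 11 of 129 list genes (8.53%) were lower, against 6.23% of all compared genes. Of the 9, 1 was that much higher. The share of all compared genes that much higher is not given here, nor are shares among genes of like signal. The counts of the 9 at this threshold are therefore not read as a result. After subtraction of like-signal genes no sign of the 9 changed in any of the 8 alternatives run. Hsp90b1 then lay between -0.35 and -0.23, Pdia6 between -0.40 and -0.33 and Dnajc3 between 0.43 and 0.46. Calr lay between -0.31 and -0.19, Canx and Hspa5 each between -0.32 and -0.16. P4hb lay between -0.19 and -0.14, Xbp1 between -0.15 and -0.11 and Pdia3 between 0.080 and 0.22. The subtracted median of the 9, -0.24 in the main setting, was -0.16 with the lowess trend and -0.28 with averaged probe sets. Median centring, 1 of the 8, shifts all genes of an array alike and so could not change the subtracted values. Averaging probe sets moved only the like-signal genes, since each of the 9 had 1 probe set. Of 268 alternative values 253 moved by less than the scatter between genes (counts by at most 1.5 times). These include values that could not move, such as subtracted values under median centring and differences of the 9 genes under averaging of probe sets. The criterion also let a value change sign and still be counted among the 253. Pdia3, at -0.072 as deposited and 0.20 after quantile normalization, was counted so, as were the list medians named next. The count of 253 is therefore not a measure of how firm a sign is. Among the list medians, that of ER-associated degradation turned positive with the floor at the 75th percentile and that of MHC class I peptide loading with quantile normalization. No paired analysis was possible because each genotype had 1 array, and no value has an error between animals.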

Other observations

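The promoter motif was also followed outside the ER chaperones. Besides the 6 genes described, 31 genes held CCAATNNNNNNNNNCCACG in a RefSeq promoter window (GRCm38.p6), and 3 of them were in the pathway lists: Creld2, Ero1b (0.020) and Syvn1 (-0.092), the ubiquitin ligase gene of ER-associated degradation. Another was Derl3, a degradation factor that was below the floor on both arrays, and a further one Calr4, a calreticulin-like gene, also below the floor. Of these 31 genes 11 were compared, 4 lower and 7 higher, with a median difference of 0.017 (51.9% of all compared genes were lower). None of the 11 was past 1.5-fold, which is near the share of all compared genes (1.37% that much lower and 0.315% that much higher). Creld2 (-0.40) and Zfp57 (-0.35), a zinc finger gene known for genomic imprinting, were the lowest, and Alg12 (0.13), a mannosyltransferase of N-glycan assembly, was among the higher ones. The 6 ER chaperone genes with the motif had a median of -0.56 with 5 of 6 lower, and the 3 measured genes without it, Pdia3, P4hb and Xbp1, a median of -0.22 with all 3 lower. Dnajc3 (0.36) was the 1 higher gene with the motif. Pdia3, counted here as without it, had a match when 1 mismatch was allowed. Of the other genes in the same range of mean signal 68.5% were lower. After subtraction of like-signal genes the medians were -0.27 with the motif and -0.15 without it. Of the 6, 4 had a higher mean signal than any of the 3, and differences varied with signal. The lists of windows with and without the motif were compared after the values were seen, and no test was run.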
